A study of Mus musculus with 15 samples.

Results

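The genes described here encode the subunits of the proteasome, the protease that degrades proteins tagged with ubiquitin. They were taken by symbol: every probe set annotated to 1 gene whose symbol starts with Psma, Psmb, Psmc, Psmd or Psme followed by a digit, leaving out the interferon-inducible catalytic subunits Psmb8, Psmb9 and Psmb10. This gave 70 of 36701 probe sets, for 41 of the 15964 genes with a probe set of their own. The 41 genes comprise 8 alpha and 8 beta genes of the 20S core, 6 ATPases and 14 other genes of the 19S cap, and 3 activators. The 14 include cap assembly factors, such as Psmd5 and Psmd10, besides subunits. The rule also took Psmc3ip and Psme3ip1, which are named after a subunit they bind and are not subunits.

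Ba/F3-beta cells, a mouse pro-B line that depends on interleukin-3 (IL-3), were profiled on Affymetrix U74A, U74B and U74C arrays in 5 conditions. Cells given siRNAs against both Stat5A and Stat5B were taken after 30 min or 2 h of IL-3. Cells given a control (scramble I) siRNA were taken after the same 30 min or 2 h of IL-3 and also unstimulated. All 5 conditions had an siRNA, and none combined Stat5 siRNA with no IL-3, so the knockdown was compared only in IL-3 stimulated cells. There was 1 array per condition and design, 15 in all, so no difference has a replicate check and none was tested. Bulk RNA was measured, in which a smaller share of cells expressing a gene and less RNA per cell cannot be told apart.

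The 26S proteasome is a barrel capped at its ends. The 20S barrel has outer rings of alpha subunits, which form the gate, and inner rings of beta subunits, of which Psmb5, Psmb6 and Psmb7 are the catalytic ones. The 19S cap has a base ring of ATPases (Psmc genes), which unfold substrates and feed them into the barrel, and a lid of non-ATPases. Of the lid subunits, Psmd14 cuts ubiquitin chains off. Psmd genes encode lid subunits, base subunits such as Psmd1, Psmd2 and Psmd4, and cap assembly factors such as Psmd5 and Psmd10. The subunits are made in fixed proportions in most cells, and their genes are commonly regulated together by the transcription factor Nfe2l1 when proteasome activity falls.

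The arrays read the siRNA targets as follows. Stat5a, on the brighter of its probe sets, both flagged for cross-hybridisation, had signals of 277 at 30 min and 255 at 2 h in Stat5 siRNA cells, against 548 and 475 in control siRNA cells with IL-3. Stat5b had 166 and 126 in Stat5 siRNA cells, against 499 and 177 in control siRNA cells, so on its only measured probe set the control array at 2 h was already close to the knockdown arrays. Of 12 pro-B and cytokine-receptor markers on the arrays, 5 reached the detection floor (Cd79b, Csf2rb, Csf2rb2, Il3ra and Ptprc), while the B-lineage genes Cd79a, Ebf1, Igll1, Pax5 and Vpreb1 did not. None of the 5 myeloid and none of the 4 T-cell markers reached it. Of 5 fibroblast and epithelial markers only Epcam did, with an unflagged probe set between 416 and 593 over the 5 arrays. Both erythroid markers did. Klf1, an erythroid transcription factor, had 605 and 258 in Stat5 siRNA cells at 30 min and 2 h, and 624 unstimulated, 450 at 30 min and 194 at 2 h in control siRNA cells. Hba-a1, an alpha-globin gene, had 1102 and 1172 in Stat5 siRNA cells at 30 min and 2 h, against 471 and 447 in control siRNA cells. The part of these markers in the proteasome values was not tested.

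Proteasome transcripts were widely detected and varied little. The floor was set at a signal of 119.9, the level that 14553 of the probe sets reach on at least 1 array. Of the 70 proteasome probe sets, 48 (68.6%) reached it on at least 1 array and 45 (64.3%) on all 5, against 39.7% and 28.3% of all probe sets. Among those present on all 5 arrays of their design, the highest condition exceeded the lowest by a median of 25.4% for proteasome probe sets and 41.4% for all 10372. The proteasome probe sets were also brighter, with a median signal of 662 against 353, and the part of brightness in this difference was not tested. Only 3 of the 45 (6.67%) spanned 2-fold or more, against 9.47% of all. These 3 read Psmc3, Psmd7 and Psme3.

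At the gene level 36 of the 41 were measured, and 5 never reached the floor: Psmb11, the thymus-specific beta subunit, Psmc3ip, a meiotic recombination factor, the ATPase Psmc4, the cap assembly factor Psmd10 and the large base subunit Psmd2. Psmc4 and Psmd2 encode core parts of the cap, so their values say only that these probe sets gave little signal here. Signals of different probe sets are not comparable as transcript amounts, since probes bind with different strength. Gene values use flagged probe sets only where a gene has no other, and among the probe sets so used the highest mean signals were those of Psmb4, a beta subunit, at 2205, the ATPase Psmc6 at 2199 and the alpha subunit Psma2 at 2009. Flagged probe sets of Psmb5 and Psma3, not used for this reason, averaged 2756 and 2204. Psma2 had 1965 at 30 min and 2012 at 2 h with Stat5 siRNA, and 2081 unstimulated, 1855 at 30 min and 2133 at 2 h with control siRNA. Psmb4 had 2246 and 2252 with Stat5 siRNA and 2186, 2287 and 2054 with control siRNA, from a probe set that may also bind related transcripts. The 5 conditions lay within 1.15-fold of each other for Psma2 and within 1.11-fold for Psmb4. The catalytic subunit Psmb6 was as flat, at 733 and 714 with Stat5 siRNA and 762, 783 and 764 with control siRNA.

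**Figure D1:**
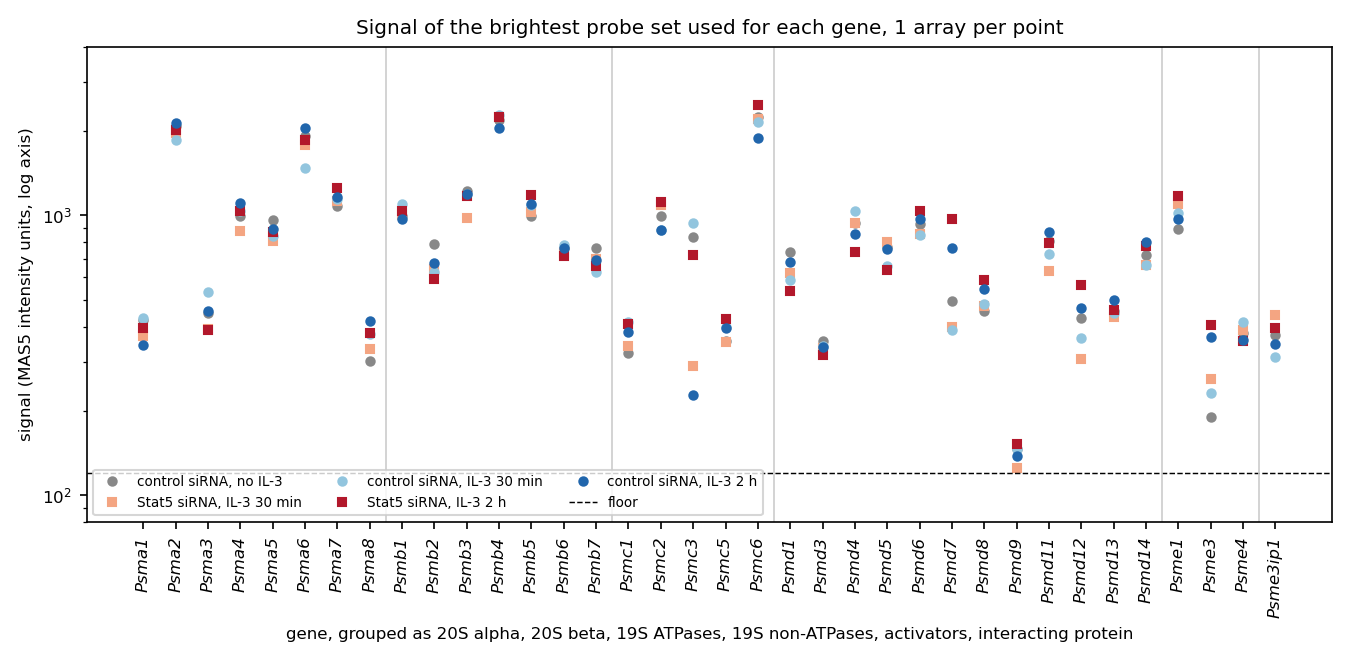
Signal of each measured proteasome gene (log axis, MAS5 intensity units) on the 5 arrays, with genes grouped by place in the complex and the floor of 119.9 drawn as a dashed line. Most genes form a tight cluster of 5 points, and Psmc3, Psmd7 and Psme3 have the widest spread.

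Without replicate arrays, the only view of measurement scatter came from different probe sets of 1 gene on the same RNA. Over all genes with such pairs, the SD of a single log2 ratio was between 0.23 and 0.32 in the 6 comparisons. It was between 0.088 and 0.17 in the 3 or 4 proteasome pairs left when flagged probe sets and those below the floor are set aside. With those included, probe sets of 1 gene lay as far apart as 2.31 on the log2 scale for Psmc3, 0.96 for Psma3 and 0.76 for Psma4. This is scatter between probe sets, not between cultures. Values given below are log2 ratios per gene, the median of its probe sets that had signal, preferring those without a cross-hybridisation flag.

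At 30 min of IL-3 no proteasome gene differed by 2-fold from unstimulated cells. Of 36 measured genes, 18 had a log2 ratio above 0 and 18 below (all genes 49.0% above), with a median of −0.01 for both proteasome and all 8155 genes. The background at 2-fold was 0.711% of all genes higher and 0.343% lower. A smaller step was also counted, the larger signal at least 25% above the smaller. By this step 83.3% of proteasome genes lay within 25%, against 80.7% of all, 2 proteasome genes were higher (all genes 9.86%) and 4 lower (9.47%). The highest ratios were 0.38 for Psmc1, an ATPase of the base, with 417 at 30 min against 321 unstimulated, 0.32 for Psma8, the testis-type alpha subunit, and 0.28 for the activator Psme3. The Psma8 value came only from a probe set flagged for cross-hybridisation. The lowest were −0.38 for the alpha subunit Psma6, with 1478 at 30 min against 1923 unstimulated, −0.35 for the lid subunit Psmd7 and −0.34 for Psmd1, the scaffold of the base. These ratios are little above the 0.25 scatter of a single ratio in this comparison.

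IL-3 for 2 h gave a median of 0.05 for proteasome genes and −0.03 for all 8294 genes, with 20 of 36 above 0 (all genes 46.2%). No gene was 2-fold higher (all genes 2.45%) and 1 was 2-fold lower (1.63%), the ATPase Psmc3, whose value rests on 1 discordant probe set described further on. By the 25% step, 3 were higher (17.7%) and 2 lower (21.4%), and 86.1% stayed within 25%, against 60.9% of all genes.

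The gene nearest to 2-fold was Psme3, which encodes PA28 gamma, a nuclear activator that opens the 20S core without ubiquitin or ATP. Its signal in Stat5 siRNA cells was 259 at 30 min and 406 at 2 h, and in control siRNA cells 190 unstimulated, 231 at 30 min and 367 at 2 h. Both 2 h arrays were above all 3 others, with a log2 ratio at 2 h over unstimulated of 0.95, or 1.93-fold. Because the unstimulated signal lay close to the floor, doubling the floor brings the ratio down to 0.61. Psmd7 encodes the lid subunit that pairs with Psmd14. It had 398 and 970 at 30 min and 2 h in Stat5 siRNA cells, and 496 unstimulated, 389 at 30 min and 766 at 2 h in control siRNA cells. Its ratio at 2 h over unstimulated was 0.63, and both 2 h arrays again stood above the rest. The third highest was Psma8 at 0.47. Apart from Psmc3, the lowest were Psmc6 at −0.33, the alpha subunit Psma1 at −0.30 and the beta subunit Psmb2 at −0.23. Psmc6 was lower on both of its probe sets, 1898 at 2 h against 2239 unstimulated on the brighter and 324 against 435 on the dimmer.

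**Figure D2:**
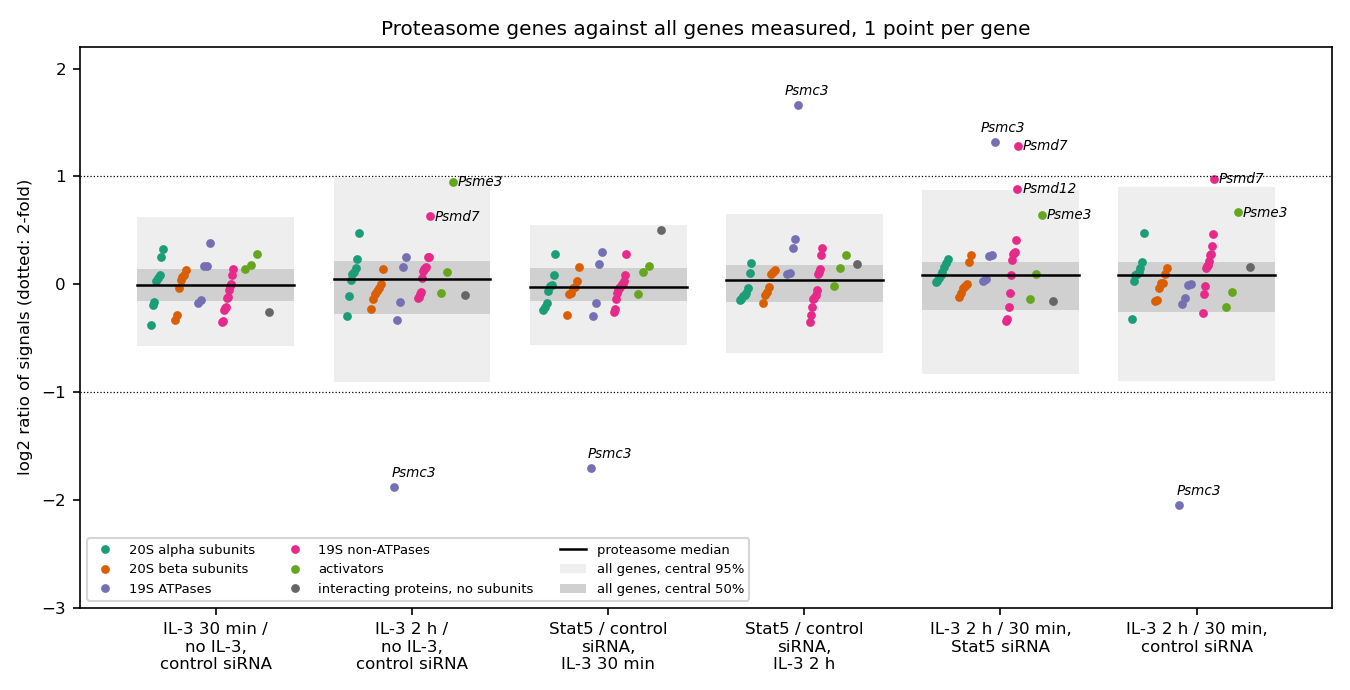
Log2 ratio of each measured proteasome gene in the 6 comparisons, coloured by place in the complex, over bands that hold the central 50% and 95% of all genes. Most proteasome genes stay inside the bands, and the points past the dotted 2-fold lines are Psmc3 in 5 comparisons and Psmd7 in 1.

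The step between 30 min and 2 h was read once in each siRNA, on arrays that the other siRNA does not share. With Stat5 siRNA the median of 2 h over 30 min was 0.09, against −0.02 for all 8247 genes, and 26 of 36 genes lay above 0 (all genes 47.2%). With control siRNA it was also 0.09, against −0.02 for all 8234 genes, and 23 of 36 lay above 0 (47.6%). The sizes were small. With Stat5 siRNA 2 genes were 2-fold higher (all genes 1.64%), Psmd7 and Psmc3, and none lower (1.19%). With control siRNA none was 2-fold higher (1.89%) and 1 lower (1.65%), Psmc3. Within 25% lay 80.6% of proteasome genes in each siRNA, against 65.1% of all genes with Stat5 siRNA and 63.3% with control siRNA.

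Psmd7, Psme3, Psmd11 and Psmd12, 3 lid genes and an activator, were higher by 25% or more at 2 h in both siRNAs. That is 11.1% of the 36 genes, against 8.56% of all 7924 genes measured in both. No proteasome gene was that much lower in both, against 798 of the 7924. Psmd7 was 2.44-fold higher at 2 h than at 30 min with Stat5 siRNA and 1.97-fold with control siRNA. Psme3 was 1.56-fold and 1.59-fold higher. Psmd12, a lid scaffold subunit, was read by a probe set flagged for cross-hybridisation. It had 563 at 2 h against 306 at 30 min with Stat5 siRNA and 468 against 365 with control siRNA. Its unstimulated signal was 430, above the 30 min ones, so 2 h over unstimulated was only log2 0.12. Psmd11, another lid scaffold subunit, was read by a pair of probe sets. The brighter had 797 at 2 h against 633 at 30 min with Stat5 siRNA and 873 against 727 with control siRNA. The dimmer had 530 against 378 and 583 against 368. Both probe sets were higher at 2 h in both siRNAs. In unstimulated cells Psmd11 had 808 and 446, above its 30 min values, so the 2 h signal exceeded the unstimulated one by less (log2 0.25).

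**Figure D3:**
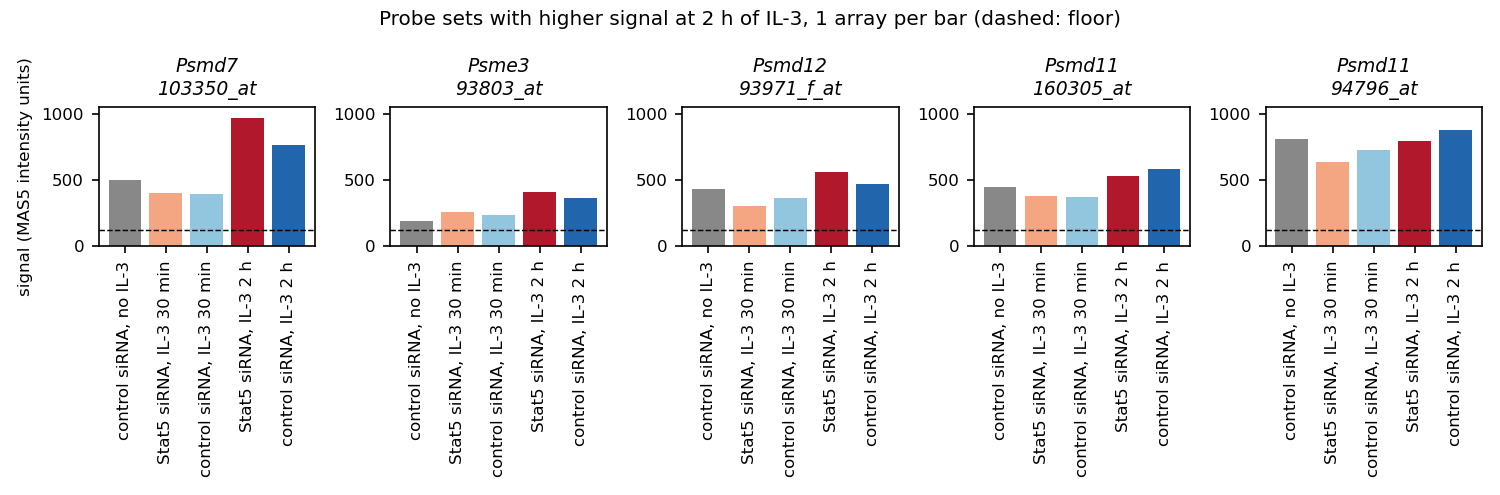
Signal (MAS5 intensity units, axis from 0) of the 5 probe sets of Psmd7, Psme3, Psmd12 and Psmd11, 1 bar per array, with the floor of 119.9 dashed. In each panel and siRNA the 2 h bar is above the 30 min bar, with the widest step for Psmd7.

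The lid genes had the higher medians within the cap, a grouping made after the values were seen. Of its 8 measured genes (Psmd3, Psmd6, Psmd7, Psmd8, Psmd11, Psmd12, Psmd13 and Psmd14), 7 were above 0 at 2 h over 30 min with Stat5 siRNA (median 0.29) and 7 with control siRNA (median 0.23). The 4 other measured non-ATPases, among them the assembly factor Psmd5, had medians of −0.27 and 0.06. The ATPases of the cap had a median of 0.26 with Stat5 siRNA, with 5 of 5 above 0. This counts Psmc3 at 1.32, from its discordant U74C probe set, where U74A and U74B alone gave −0.17. The others stood at 0.03 for Psmc2, 0.05 for Psmc6, 0.26 for Psmc1 and 0.27 for Psmc5. With control siRNA the median of the ATPases, Psmc3 included, was −0.13, with 1 of 5 above 0. Psmd14, the deubiquitinase of the lid, had 776 at 2 h against 664 at 30 min with Stat5 siRNA. With control siRNA it had 805 against 665, and 724 unstimulated. The alpha genes had a median of 0.10 in both siRNAs, with 8 of 8 above 0 with Stat5 siRNA and 7 of 8 with control siRNA. The beta genes stayed at −0.02 and 0.01. Over unstimulated cells, with control siRNA, the lid median was −0.12 at 30 min (1 of 8 above 0) and 0.14 at 2 h (7 of 8). No difference between these groups was tested.

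Some genes ran the other way. With Stat5 siRNA the lowest ratios of 2 h over 30 min were −0.35 for Psmd4, the ubiquitin receptor of the base, −0.32 for the cap assembly factor Psmd5 and −0.21 for Psmd1. With control siRNA, leaving Psmc3 aside, they were −0.32 for Psma1, −0.27 for Psmd4 and −0.22 for the nuclear activator Psme4. Psmd4 had 741 at 2 h against 941 at 30 min with Stat5 siRNA, and 860 against 1033 with control siRNA. Psma6 was the third highest with control siRNA at 0.48, yet stood at 0.05 with Stat5 siRNA.

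Over the 36 genes the 2 time ratios had the same sign in 63.9%, against 67.9% of all genes. Their Pearson correlation across genes was −0.12, and 0.64 over the 35 genes without Psmc3, against 0.61 over all 7924 genes. The genes are not independent replicates, and the points share the arrays.

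**Figure D4:**
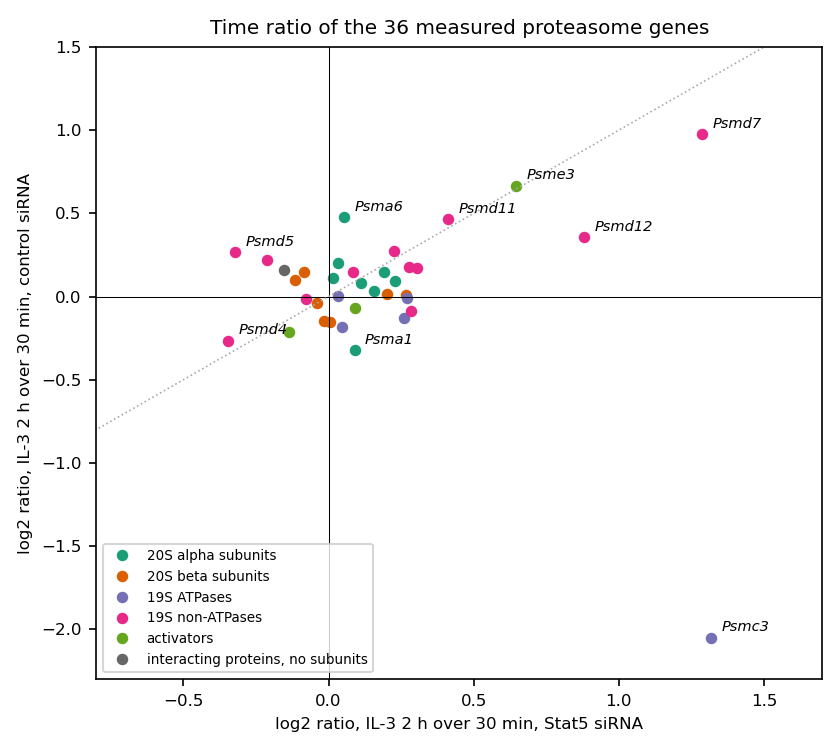
Log2 ratio of 2 h over 30 min of IL-3 with Stat5 siRNA and with control siRNA for each of the 36 measured genes, 1 point per gene, coloured by place in the complex. Psmd7, Psme3, Psmd12 and Psmd11 are high in both, and Psmc3 stands alone at the lower right, at 1.32 with Stat5 siRNA and −2.05 with control siRNA.

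The start-site sequences of these genes are given for genes that were higher at 2 h. RefSeq (GRCm38.p6) windows from 250 bases before to 50 after the start were held for 34 of the 41 genes, and Psmc3 and Psmd7 were not among them. Capitals mark matches, on either strand, to the antioxidant response element core TGACNNNGC, the kind of element Nfe2l1 binds with a small Maf partner, to the CCAAT box, and to the GC box GGGCGG. Shown are 3 genes higher at 2 h in both siRNAs, and the catalytic subunit Psmb5 as a stable gene with an antioxidant core near its start.
Psme3, chr11:101315963-101316262, plus strand: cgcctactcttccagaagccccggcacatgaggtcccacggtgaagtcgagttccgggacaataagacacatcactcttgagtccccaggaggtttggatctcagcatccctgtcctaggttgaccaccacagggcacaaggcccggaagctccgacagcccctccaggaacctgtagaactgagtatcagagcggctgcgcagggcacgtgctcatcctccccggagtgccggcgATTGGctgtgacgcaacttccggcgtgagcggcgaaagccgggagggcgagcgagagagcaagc
Psmd11, chr11:80428365-80428664, plus strand: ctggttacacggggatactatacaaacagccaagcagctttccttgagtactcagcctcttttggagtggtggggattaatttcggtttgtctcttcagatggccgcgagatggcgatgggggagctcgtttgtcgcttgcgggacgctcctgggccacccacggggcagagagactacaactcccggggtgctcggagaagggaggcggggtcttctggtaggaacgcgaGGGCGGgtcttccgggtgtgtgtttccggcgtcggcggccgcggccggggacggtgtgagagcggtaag
Psmd12, chr11:107479278-107479577, plus strand: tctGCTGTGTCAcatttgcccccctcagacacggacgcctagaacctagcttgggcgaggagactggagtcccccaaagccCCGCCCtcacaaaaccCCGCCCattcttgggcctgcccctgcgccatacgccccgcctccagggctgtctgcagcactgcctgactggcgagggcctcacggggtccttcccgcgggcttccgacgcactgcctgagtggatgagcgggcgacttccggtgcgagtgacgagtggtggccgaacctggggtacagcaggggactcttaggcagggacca
Psmb5, chr14:54617946-54618245, minus strand: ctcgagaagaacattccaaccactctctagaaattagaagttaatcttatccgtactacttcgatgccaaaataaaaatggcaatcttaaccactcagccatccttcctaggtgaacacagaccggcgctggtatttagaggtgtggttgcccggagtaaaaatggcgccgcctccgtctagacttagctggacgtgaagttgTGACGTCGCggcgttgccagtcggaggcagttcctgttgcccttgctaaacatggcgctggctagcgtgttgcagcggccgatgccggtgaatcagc

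The windows of the 3 genes higher at 2 h had no motif in common. Psme3 held 1 CCAAT box, Psmd11 held 1 GC box, and Psmd12 held 2 GC boxes and an antioxidant core starting 247 bases before its start site. The antioxidant core of Psmb5 began 47 bases before the start. Psmb5 had a signal of 1031 and 1186 with Stat5 siRNA (30 min and 2 h), and 996, 1088 and 1099 with control siRNA (unstimulated, 30 min and 2 h). Over the 34 genes, the antioxidant core was found in 6 (17.6%), Psmb5, Psmb6, Psmc6, Psmd9, Psmd12 and Psme4, against 14.0% of 27025 genes with a window. The CCAAT box was in 15 (44.1%), against 41.1%. The GC box was in 21 (61.8%), against 38.2%, and the windows had a median GC content of 59%, against 52.7%. Antioxidant cores overlapped another motif in 1 window, and CCAAT and GC boxes in 0. A match is a run of letters and not a shown binding site.

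Stat5 siRNA at 30 min of IL-3 gave a median of −0.03, against 0.00 for all 8124 genes, with 13 of 36 genes above 0 (all genes 50.1%). No gene was 2-fold higher (all genes 0.308%) and 1 was 2-fold lower (0.382%), again Psmc3. By the 25% step, 1 was higher (9.27%) and 1 lower (9.68%), so 94.4% of proteasome genes lay within 25%, against 81.1% of all. The gene higher by that step was Psme3ip1, which is no subunit and binds PA28 gamma, with 441 in Stat5 siRNA cells against 311 in control siRNA cells (log2 0.50). Next were the ATPase Psmc2 at 0.30, Psmd5 at 0.28 and Psma6 at 0.28. Apart from Psmc3, the lowest were Psmc1 at −0.29, the beta subunit Psmb3 at −0.28 and Psmd12 at −0.26. Psmb3 had 978 in Stat5 siRNA cells against 1188 in control siRNA cells, the lowest of its 5 arrays.

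Stat5 siRNA at 2 h gave a median of 0.04, against 0.00 for all 8132 genes, with 18 of 36 genes above 0 (all genes 50.5%). Psmc3 alone was 2-fold higher (all genes 0.504%) and none lower (0.430%). By the 25% step, 4 were higher (12.2%) and 1 lower (12.0%), and 86.1% lay within 25%, against 75.9% of all. The ATPases had a median of 0.33, with 5 of 5 above 0, counting Psmc3 at 1.66 from its discordant U74C probe set. From U74A and U74B alone Psmc3 stood at −0.08. Psmc1 and Psmc5 were at 0.10. Psmc6 was the highest without Psmc3, at 0.42, with 2482 in Stat5 siRNA cells against 1898 in control siRNA cells on one probe set and 440 against 324 on the other. Both probe sets, on different array designs, gave the same direction. Psmd7 followed at 0.34 and Psmc2 at 0.33. The lowest were Psmd1 at −0.35, with 537 against 682, Psmd5 at −0.29 and Psmd4 at −0.22. The Psmd5 value is a bound, since 1 of its probe sets was below the floor in Stat5 siRNA cells.

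The direction under the knockdown was shared between the times about as often as for genes in general. The 30 min and 2 h ratios share no array, and 19 of 36 genes had the same sign in both (52.8%, 7 higher and 12 lower), against 55.9% of all genes. No proteasome gene differed by 25% or more in the same direction at both times (all 7699 genes: 188 higher, or 2.44%, and 177 lower). At shares this small, few or none would be met among 36 genes. Psmc2 came nearest, with 1087 in Stat5 siRNA cells against 883 in control siRNA cells at 30 min, and 1113 against 884 at 2 h. Its unstimulated signal was 994, between the siRNA groups. Psme1, which encodes PA28 alpha, one subunit of the interferon-inducible activator, had 1102 against 1017 at 30 min (log2 0.12) and 1173 against 969 at 2 h (0.27). Its partner Psme2 was read only by probe sets annotated to more than 1 gene and has no value here.

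Psmc3 was the exception in every comparison but IL-3 at 30 min, and its probe sets disagree. Psmc3 encodes an ATPase of the base ring and was read by 5 probe sets, 4 of them flagged for cross-hybridisation. The unflagged one, on the U74C array, had 288 at 30 min and 719 at 2 h in Stat5 siRNA cells, and 839 unstimulated, 943 at 30 min and 228 at 2 h in control siRNA cells. The arrays of Stat5 siRNA at 30 min and control siRNA at 2 h were low and the other three high. The gene value follows this probe set. It was −1.88 for 2 h of IL-3 over unstimulated, −1.71 for Stat5 siRNA over control at 30 min and 1.66 at 2 h, and 1.32 and −2.05 for 2 h over 30 min with Stat5 siRNA and control siRNA.

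The 3 Psmc3 probe sets on U74A did not show the pattern. The brightest on U74A had 661 and 588 with Stat5 siRNA (30 min and 2 h), and 560, 647 and 623 with control siRNA (unstimulated, 30 min and 2 h). The next had 453 and 480 with Stat5 siRNA, and 462, 455 and 406 with control siRNA. Both stayed within 1.18-fold over the 5 arrays, and the dimmest within 1.26-fold. The flagged U74C probe set reached the floor on 1 array only, with 72.3 and 112 with Stat5 siRNA, and 172, 107 and 105 with control siRNA. From the U74A and U74B arrays alone, Psmc3 had log2 ratios of 0.03 and −0.08 for Stat5 siRNA at 30 min and 2 h, and 0.15 for IL-3 at 2 h. The 11868 probe sets on U74C were searched for this pattern, with signals on the 2 low arrays raised to the floor where below it. This probe set was the only 1 that was 2-fold or more lower on both of those arrays than on the other three. Only probe sets at least 2-fold above the floor on the other three could meet this rule. Without the raising, the undetected U74C probe set of Psmc4 met it too, with 6.06 and 6.86 against 20.5, 19.7 and 26.7. These signals are far below the floor, and how many of the 11868 probe sets meet the rule that way was not counted. Over 476 to 501 genes read on U74C and on the other designs, the ratios were weakly correlated in several comparisons. Pearson's r was 0.04 for IL-3 at 30 min, and 0.14 and 0.16 for Stat5 siRNA at 30 min and 2 h. It was between 0.44 and 0.52 for IL-3 at 2 h and for 2 h over 30 min in each siRNA. The source of the discordant signal was not tested.

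**Figure D5:**
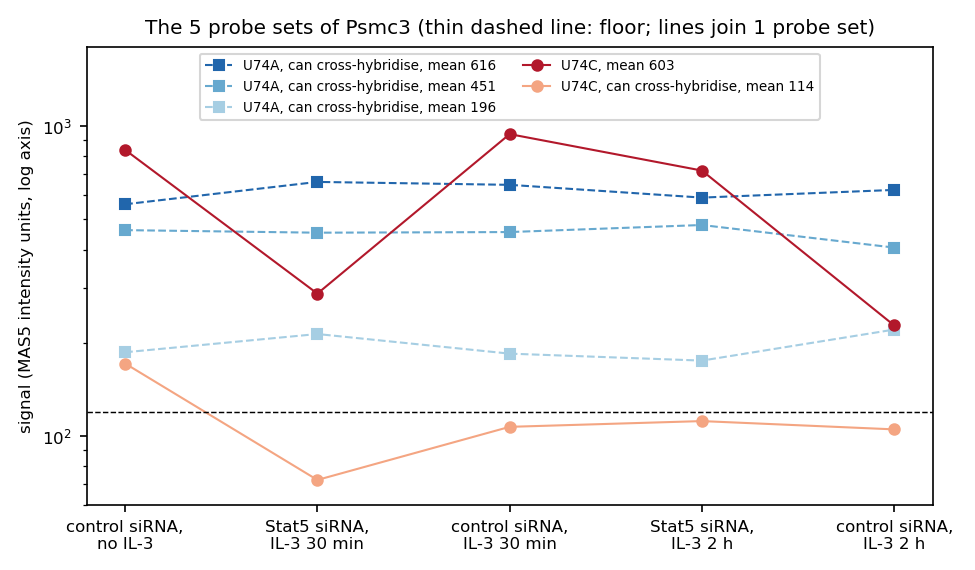
Signal (log axis, MAS5 intensity units) of the 5 Psmc3 probe sets on the 5 arrays, with the floor dashed. The unflagged U74C probe set is at 288 (Stat5 siRNA, 30 min) and 228 (control siRNA, 2 h) on 2 arrays, while the U74A probe sets stay level.

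Other genes with several probe sets differed less. No gene but Psmc3 had probe sets 2-fold apart in a ratio. Psma3, an alpha subunit, came next, with a spread of 0.96 for Stat5 siRNA at 30 min between its probe sets. Its flagged U74A probe set had 2312 in Stat5 siRNA cells against 1623 in control siRNA cells, and its brighter unflagged U74C probe set had 391 against 533. The alpha subunit Psma4 had a spread of 0.76 in that comparison. By contrast the Psmb1 probe sets, 697 against 671 and 1003 against 1096, differed by 0.18.

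Genes that work with the proteasome were read from lists chosen with earlier results known. Of 8 measured assembly and inhibitor genes none was 2-fold changed in any comparison. Pomp, the chaperone of 20S maturation, had 810 in Stat5 siRNA cells against 1101 in control siRNA cells at 30 min (log2 −0.44), and 1232 against 1060 at 2 h (0.22). Psmg4, another 20S assembly chaperone, had 177 against 273 at 2 h (−0.63). Psmb8, Psmb9 and Psmb10, the catalytic subunits of the immunoproteasome, had log2 ratios with Stat5 siRNA of 0.20, 0.25 and 0.42 at 30 min, where 1 of 3 passed the 25% step (all genes 9.27%) and the first 2 lay near the 0.23 scatter of a single ratio. At 2 h they stood at 0.37, 0.72 and 0.52, and 3 of 3 passed the step (12.2%).

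Of the 6 measured transcription factor and processing genes, 6 were above 0 at 2 h of IL-3 over unstimulated (all genes 46.2%), 4 of them by 25% or more (17.7%). Nfe2l1 stood at 0.42, Nfe2l2 at 0.32, and the small Maf partners Mafg and Mafk at 0.43 and 0.55. The Mafg value is a bound, since a probe set used for it was below the floor in unstimulated cells. Its brighter probe set had 793 at 2 h against 474 unstimulated. Maff was at least 2.75-fold higher at 30 min, since its unstimulated signal was below the floor, and none of the list was 2-fold changed by Stat5 siRNA. Of 11 measured deubiquitinases and shuttles none was 2-fold changed. Their medians with Stat5 siRNA were −0.14 at 30 min, with 3 of 11 above 0 (all genes 50.1%, median 0.00), and −0.13 at 2 h, with 2 of 11 above 0 (50.5%, median 0.00). Ube3c, a proteasome-bound ubiquitin ligase, was lowest at 2 h, with 292 against 483 (−0.73), and the shuttle Ubqln4 was highest at 2 h of IL-3 (0.57). Of the ubiquitin and E1 list only Uba6 was measured, at 0.27 for 2 h of IL-3 and 0.30 for Stat5 siRNA at 2 h.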

How the data were processed

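Total RNA was hybridised to 3 array designs, and the deposited values are probe set signal intensity from MAS5 normalization, per the submitters' processing notes and the design text. Each array was rescaled by its mean trimmed by 2% at each end (factors 0.999839 to 1.00024). The floor of 119.866 was set so that 14553 probe sets reach it, the number the design text gives for its own filter, and detection calls were not used here. A ratio was taken where either array reached the floor, with lower signals set to it. Gene values are medians over probe sets with 1 symbol (29131 of 36701, 724 had several and 6846 none), preferring those without a cross-hybridisation flag. Genes were called by size, 2-fold and a step of 25%, with no p-values. The calculation was tested on simulated data. Named were all genes past 2-fold, the 3 highest and 3 lowest others per comparison, the brightest, the undetected and the discordant ones, and further members (Psmb5, Psmb6, Psmb1, Psma3, Psma4, Psmd14) were chosen after their values were seen. Members and lists were chosen with earlier results of these data known. Nothing says which arrays come from separate cultures. Python 3.11.15, numpy 2.4.6 and pandas 2.3.3 were used.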

Additional observations from a re-analysis of the deposited data

Results flagged for a closer look

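Psmc3 took opposite directions under the same contrast. Stat5 siRNA over control siRNA gave log2 −1.71 at 30 min and 1.66 at 2 h, and 2 h over 30 min gave 1.32 with Stat5 siRNA and −2.05 with control siRNA. Both contrasts were formed from the same signals, so the second adds nothing to the first. The differences between these values were not tested, since each rests on 1 array per condition and on a single U74C probe set.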

How the results depend on the processing

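There were 10 counts that changed by more than 1.5 times with the processing, all through Psmc3. With the U74A and U74B arrays only, and likewise without Psmc3 (an alternative added after seeing the data), the number of proteasome genes 2-fold lower was 0 for IL-3 at 2 h, 0 for Stat5 siRNA at 30 min and 0 for 2 h over 30 min with control siRNA. The number 2-fold higher was 0 for Stat5 siRNA at 2 h and 1 for 2 h over 30 min with Stat5 siRNA. The other 110 counts stayed within 1.5 times. Among these, scaling each array to a common median raised the number 2-fold higher for 2 h over 30 min with Stat5 siRNA to 3, through Psmd12 at 1.07. Over the alternatives (scaling, floor, flagged probe sets, array designs), the median for Stat5 siRNA at 2 h ranged between −0.01 and 0.14, so its sign is not settled. The median for IL-3 at 30 min ranged between −0.04 and 0.00. With Stat5 siRNA, 2 h over 30 min ranged between 0.08 and 0.28, the upper value under the common median. The medians for IL-3 at 2 h (0.00 to 0.06), Stat5 siRNA at 30 min (−0.13 to −0.02) and 2 h over 30 min with control siRNA (0.06 to 0.09) kept their sign. No paired analysis was possible because each condition has 1 array per design. Signals near the floor limit Psme3 and Psmd9, though none of theirs was below it. The dimmer Psma3 and Psmd5 probe sets had signals below the floor that were raised to it, so their ratios may be understated. The cause of the Psmc3 discordance was not tested.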
